A study of Arabidopsis thaliana with 6 samples.

Results

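The chaperones and folding enzymes of the endoplasmic reticulum (ER) were followed together with BZIP60, a transcription factor gene of the ER stress response. The 10 genes are the luminal binding protein genes BIP1, BIP2 and BIP3, the BiP partner gene SDF2, the calreticulin genes CRT1A and CRT1B, the calnexin gene CNX1, the protein disulfide isomerase gene PDIL1-1, the ER-resident HSP90 gene HSP90.7, and BZIP60. They were found by their TAIR gene identifiers among the 32424 loci of the deposited table, and each had 1 locus that held no other gene. Expression was measured by RNA-seq as FPKM, a fragment count scaled to the length of the locus and to the size of the library. All libraries came from whole Arabidopsis thaliana seedlings, wild type Col-0, kept in liquid medium with 1% sucrose for 1 h. The treated group received 100 µM N-linolenoylethanolamine (NAE 18:3), the ethanolamine amide of linolenic acid, and the control group 0.07% DMSO, with 3 libraries per group that the labels call biological replicates. The age label gives 4 days, while the growth text gives 3 days at transfer. The DMSO content of the NAE 18:3 medium is not recorded, so the compound and a difference in solvent cannot be told apart.

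The ER is where secreted and membrane proteins enter the secretory pathway and fold. BiP, an HSP70, binds exposed hydrophobic stretches of the incoming chain. Calnexin and calreticulin hold glycoproteins by their trimmed sugars, disulfide isomerases join cysteines, and the ER HSP90 acts on a narrower set of clients. When unfolded proteins build up, the membrane kinase and ribonuclease IRE1 cuts the BZIP60 mRNA, and the membrane-bound factor bZIP28 is released by proteolysis. Both routes are known to raise transcription of chaperone genes, BIP3 among them.

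The IRE1 target site of BZIP60 is shown because this gene moved against 8 of the 9 chaperone and folding genes. In the RefSeq coding sequence of BZIP60 the hexamer CTGCTG, in capitals, occurs 2 times, and its copies start 23 bases apart, at coding bases 647 and 670. IRE1 is known to cut within such a pair and to remove the bases between the cuts. The locus FPKM cannot separate cut from uncut mRNA, so the values below are the sum of both forms.
BZIP60, coding bases 632 to 690, TAIR10.1 chr1:16136260-16136318, minus strand: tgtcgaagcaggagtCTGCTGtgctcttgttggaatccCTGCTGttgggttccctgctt

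Promoters are shown for the members whose upstream window held ERSE-I, the element through which ER stress factors are known to act on chaperone genes. The motif, CCAAT followed after any 10 bases by CACG, was searched on both strands in the 250 bases before each RefSeq gene start of TAIR10.1, and it was present for 189 of 27443 nuclear protein-coding genes, 0.689% of them. Of the 10 members, 4 held it: BIP3, CRT1A, PDIL1-1 and HSP90.7. BIP3 had it in 2 places, with its outer ends 174 and 96 bases before the gene start. The core TGACGTGG of the related unfolded protein response element, present in 1.25% of promoters, was found in 3 of these 4 (CRT1A, PDIL1-1 and HSP90.7), nowhere overlapping ERSE-I. ERSE-II, which is ATTGG, any base and CCACG, was in 17 promoters and in none of the members. A match describes these letters alone. Capitals mark the fixed bases of ERSE-I on either strand, and the HSP90.7 stretch stops at the next annotated gene.
BIP3, chr1:2931851-2932100, minus strand: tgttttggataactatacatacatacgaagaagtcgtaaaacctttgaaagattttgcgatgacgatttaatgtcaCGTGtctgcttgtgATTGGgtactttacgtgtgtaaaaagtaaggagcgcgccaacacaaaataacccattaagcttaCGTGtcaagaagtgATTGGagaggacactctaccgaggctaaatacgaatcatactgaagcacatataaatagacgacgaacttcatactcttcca
CRT1A, chr1:21092710-21092959, minus strand: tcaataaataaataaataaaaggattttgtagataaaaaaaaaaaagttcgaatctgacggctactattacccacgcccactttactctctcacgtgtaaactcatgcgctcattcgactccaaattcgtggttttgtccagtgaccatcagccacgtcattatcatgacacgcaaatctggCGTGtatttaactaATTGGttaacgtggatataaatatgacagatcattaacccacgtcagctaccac
PDIL1-1, chr1:7645360-7645609, plus strand: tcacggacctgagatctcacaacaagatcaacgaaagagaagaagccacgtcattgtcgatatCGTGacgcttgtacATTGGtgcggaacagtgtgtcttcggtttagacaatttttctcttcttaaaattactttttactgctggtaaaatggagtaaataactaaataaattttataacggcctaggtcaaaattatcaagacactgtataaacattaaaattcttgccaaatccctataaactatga
HSP90.7, chr4:12556059-12556267, minus strand: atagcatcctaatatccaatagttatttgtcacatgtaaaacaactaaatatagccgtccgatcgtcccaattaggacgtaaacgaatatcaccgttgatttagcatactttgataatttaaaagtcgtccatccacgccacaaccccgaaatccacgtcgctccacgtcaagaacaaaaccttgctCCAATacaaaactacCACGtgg

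After 1 h of NAE 18:3, transcripts of 8 ER chaperone and folding genes fell, to between 25.7% and 55.2% of their DMSO means, while BZIP60 rose 3.22-fold. BIP3 stood near 0 in DMSO and was low but higher in every NAE 18:3 library. Levels were compared as log2(FPKM + 1) with limma, over the 18194 loci whose mean reached 1 FPKM, with calls made where the Benjamini-Hochberg adjusted p lay under 0.05. By that rule 9 of the 10 members were tested, 8 were lower and 1 was higher. Over all loci tested 83.2% were called, 39.2% lower and 44.1% higher, so a call alone sets no locus apart. Of the 9 tested members 6 fell at least 2-fold on this scale, against 17.2% of all loci. The groups did not overlap for any of the 10 members, as for 84.6% of all loci tested. The median log2 change was -1.13 for the tested members and 0.06 for all loci. In the same libraries most tested root markers were lower and the shoot markers higher, by values given below. In whole seedlings fewer cells of a type and less RNA per cell cannot be told apart.

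**Figure D1:**
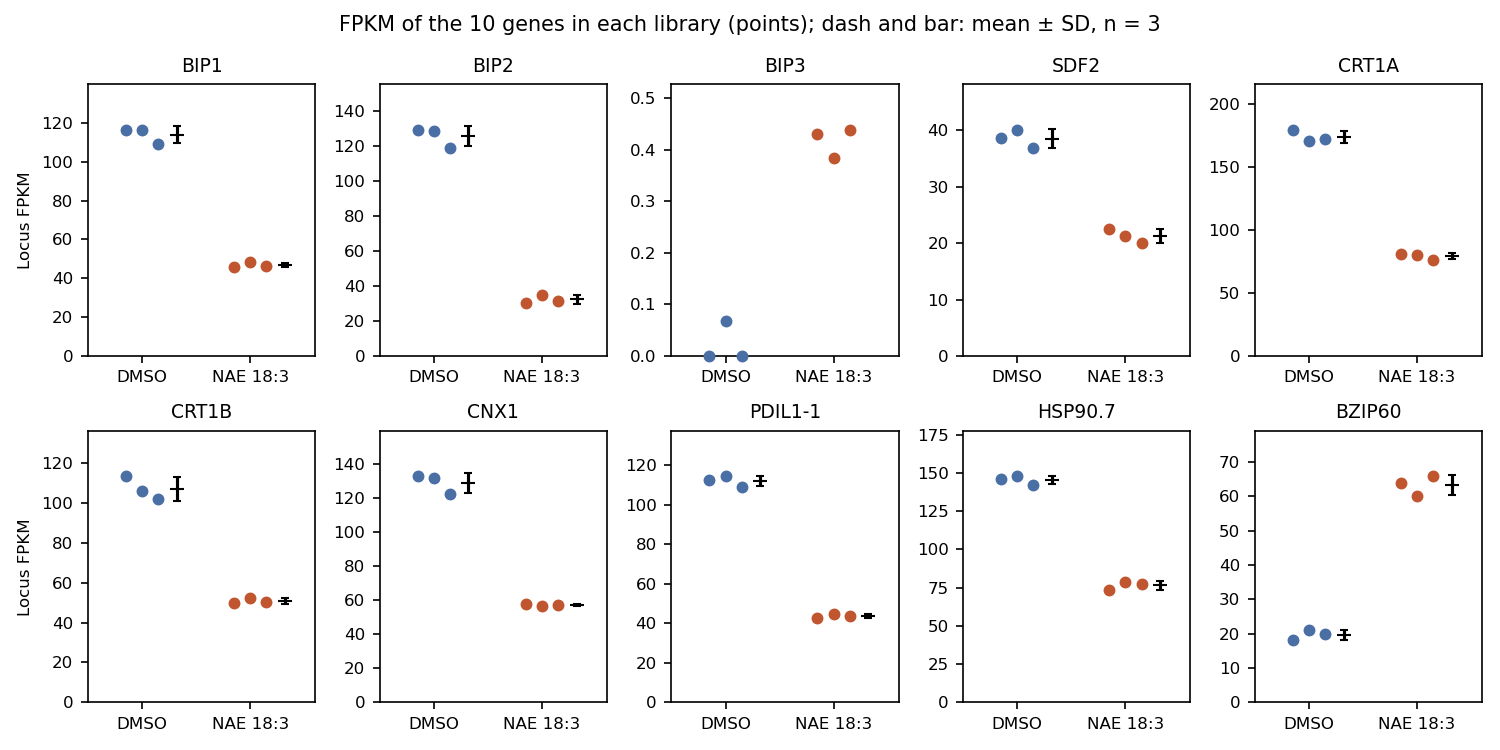
Locus FPKM (vertical axes, each starting at 0) of the 10 genes in each of the 3 DMSO and 3 NAE 18:3 libraries (points), with mean ± SD beside them except for BIP3, whose DMSO libraries include values listed at 0. BIP1, BIP2, SDF2, CRT1A, CRT1B, CNX1, PDIL1-1 and HSP90.7 lie lower after NAE 18:3, and BIP3 and BZIP60 lie higher, with no overlap between groups.

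BIP1 (AT5G28540) and BIP2 (AT5G42020) encode nearly the same BiP protein and supply most of it in unstressed plants. BIP1 stood at 116, 116 and 109 FPKM in DMSO replicates 1, 2 and 3 and at 45.8, 48.2 and 46.4 FPKM in NAE 18:3 replicates 1, 2 and 3. BIP2 stood at 129, 129 and 119 FPKM in DMSO and at 30.3, 35.1 and 31.5 FPKM after NAE 18:3. Every treated library lay far under every control for both genes. BIP1 fell 2.44-fold (log2 change -1.27, standard error 0.039, limma adjusted p = 6.3e-09). BIP2 fell 3.89-fold (log2 change -1.93, standard error 0.059, limma adjusted p = 5.9e-09). The 95% intervals of the log2 changes, -1.36 to -1.18 for BIP1 and -2.06 to -1.79 for BIP2, did not overlap. Within a library, where scaling cancels, BIP2 made up 52.2% to 52.6% of the FPKM of both copies in DMSO and 39.8% to 42.2% after NAE 18:3.

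The coding sequences of BIP1 and BIP2 are 95.8% identical in the RefSeq annotation, with an identical run of 323 bases. How reads were divided between the copies is not given in the sources used here, so the split is uncertain. Their sum was therefore taken as well, which holds whatever the split if each shared read was counted once. The summed FPKM was 246, 245 and 228 under DMSO, and it fell 3.03-fold, to 76.1, 83.3 and 78.0 under NAE 18:3. Entered as 1 locus, the sum had a log2 change of -1.59.

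BIP3 (AT1G09080), the BiP copy known to be nearly silent until the ER is stressed, differed from its sister genes. It was listed at 0 in DMSO replicates 1 and 3 and at 0.067 FPKM in replicate 2, and it stood at 0.429, 0.384 and 0.439 FPKM in the NAE 18:3 libraries. It was higher in each of the 3 treated libraries, but its mean there stood only at percentile 2.09 of the tested loci. BIP3 did not reach the minimum of 1 FPKM. Its difference on the log2(FPKM + 1) scale was 0.47, and with no filter on low values it was called higher (limma, adjusted p = 8.2e-05), where 69.7% of 24155 loci were called. Its share of the FPKM of the 3 BIP genes was 0.027% at most in DMSO and 0.459% to 0.561% after NAE 18:3 (two-sided exact permutation test, p = 0.1, the smallest that 3 against 3 libraries allow). Nearly all of that total was BIP1 and BIP2, whose sum fell 3.03-fold, so part of the rise in share came from their fall. BIP3 is 70.6% identical to BIP1 in its coding sequence and shares no identical run over 20 bases with it. The 2 ERSE-I matches of its promoter are printed above.

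SDF2 (AT2G25110) encodes a luminal protein that forms a complex with the J-domain protein ERdj3B and BiP, needed for the immune receptor EFR to accumulate. It stood at 38.7, 40.1 and 36.8 FPKM in DMSO and at 22.5, 21.3 and 20.1 FPKM after NAE 18:3. It fell 1.81-fold (log2 change -0.83, standard error 0.054, limma adjusted p = 8.8e-07). This was the smallest fall among the 8 members that fell. ERDJ3B (AT3G62600), its partner, fell alongside, from 35.5 ± 0.61 to 18.7 ± 0.432 FPKM (mean ± SD, n = 3 each).

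The calreticulin genes CRT1A (AT1G56340) and CRT1B (AT1G09210) encode soluble lectin chaperones that also bind calcium in the ER lumen. CRT1A, the most abundant member in DMSO, stood at 179.6, 171 and 172 FPKM there and at 80.6, 80.1 and 76.5 FPKM after NAE 18:3. CRT1B stood at 113, 106 and 102 FPKM in DMSO and at 49.7, 52.3 and 50.3 FPKM after NAE 18:3. Their falls were much alike. CRT1A fell 2.2-fold (log2 change -1.13, standard error 0.035, limma adjusted p = 7e-09) and CRT1B 2.11-fold (log2 change -1.06, standard error 0.045, limma adjusted p = 5.2e-08). CRT1A made up 62.0 ± 0.768% of the FPKM of both in DMSO and 60.9 ± 0.846% after NAE 18:3 (SD, n = 3 each, two-sided exact permutation p = 0.3), and the libraries overlapped. The third calreticulin gene, CRT3 (AT1G08450), required for the folding of a plant receptor kinase, did not fall on the deposited scale. It went from 29.7 ± 1.39 to 32.5 ± 1.31 FPKM (log2 change 0.13, limma adjusted p = 0.039), and the sign turned to lower with each of the 3 other scalings described below. On the deposited scale its call was lost with a replicate block, without the mean-variance trend and without any 1 of 4 libraries (limma adjusted p of 0.052 to 0.14 over these).

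CNX1 (AT5G61790), the membrane-anchored counterpart of calreticulin, stood at 133, 132 and 122 FPKM in DMSO and at 57.8, 56.7 and 57.1 FPKM after NAE 18:3. It fell 2.25-fold (log2 change -1.16, standard error 0.039, limma adjusted p = 1.1e-08). The second calnexin gene, CNX2 (AT5G07340), lay lower overall and fell as well, from 28.1 ± 1.31 to 15.5 ± 0.764 FPKM. PDIL1-1 (AT1G21750), a protein disulfide isomerase, stood at 112, 114 and 109 FPKM in DMSO and at 42.7, 44.6 and 43.6 FPKM after NAE 18:3. Its 2.56-fold fall (log2 change -1.34, standard error 0.035, limma adjusted p = 2.3e-09) was second to that of BIP2 among the members. HSP90.7 (AT4G24190), the ER HSP90 also known as SHEPHERD, is needed for CLAVATA signalling in meristems. It stood at 146, 148 and 142 FPKM in DMSO and at 73.4, 78.8 and 77.2 FPKM after NAE 18:3. It fell 1.9-fold (log2 change -0.92, standard error 0.036, limma adjusted p = 3e-08).

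BZIP60 (AT1G42990) encodes the factor made active by IRE1 splicing of its mRNA. It stood at 18.2, 21.0 and 19.8 FPKM in DMSO and at 64.0, 60.1 and 65.8 FPKM after NAE 18:3. Every treated library lay far above every control. The log2 change was 1.64 (standard error 0.058, 95% interval 1.50 to 1.77, limma adjusted p = 1.6e-08). The upstream window of BZIP60 held none of the 3 motifs searched. Within each library, the summed FPKM of BIP1 and BIP2 was 11.5 to 13.5 times that of BZIP60 in DMSO and 1.18 to 1.39 times after NAE 18:3.

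The order of the members by level changed little apart from BZIP60 and BIP2. In DMSO the descending order was CRT1A, HSP90.7, CNX1, BIP2, BIP1, PDIL1-1, CRT1B, SDF2, BZIP60 and BIP3. The libraries of CNX1 and BIP2, of BIP1 and PDIL1-1, and of PDIL1-1 and CRT1B overlapped, so these neighbours did not differ beyond their spread. After NAE 18:3 the order was CRT1A, HSP90.7, BZIP60, CNX1, CRT1B, BIP1, PDIL1-1, BIP2, SDF2 and BIP3. There the libraries of CRT1A and HSP90.7 overlapped, and those of the other neighbours did not. BZIP60 moved from rank 9 to rank 3 and BIP2 from rank 4 to rank 8. The 9 chaperone loci summed to 968, 955 and 912 FPKM in DMSO and 403, 418 and 403 FPKM after NAE 18:3.

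The summed FPKM differed between groups, although the median log2 change of all loci was 0.06 on the deposited scale. Whether scale or composition lies behind the sums was not tested. The choice of scale bears on the size of each change and, for some genes of the lists below, on its direction. Summed FPKM over all loci was 688025 to 866221 in DMSO and 991483 to 1140302 after NAE 18:3. With all libraries scaled to a common upper quartile, to a common sum of FPKM (leaving out loci that held over 5% of a library) or to common quantiles, the median log2 change of all loci was -0.25, -0.41 and -0.03. The calls over all loci moved from 8018 higher and 7125 lower to 5857 and 9497, 4831 and 10786, and 7243 and 7744. Under each of these the same 8 members were called lower and BZIP60 higher. The log2 change of BZIP60 was 1.30, 1.12 and 1.29, and the median of the tested members -1.48, -1.66 and -1.43. Relative to the median of all loci, the members' median was -1.19 on the deposited scale and -1.23, -1.25 and -1.40 with the upper quartile, the sum and the quantiles.

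**Figure D2:**
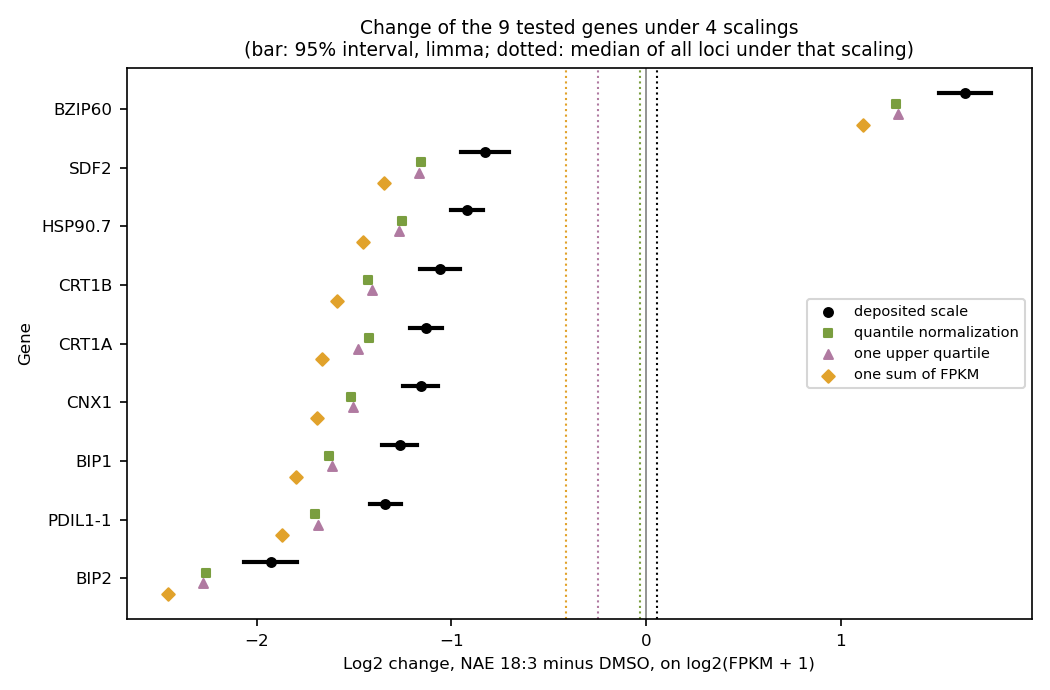
Log2 change (horizontal axis, NAE 18:3 minus DMSO, on log2(FPKM + 1)) of the 9 tested members under the deposited scale and 3 other scalings (symbols), with the 95% limma interval of the deposited scale as a bar and the median of all loci under each scaling as a dotted line of the same colour. BZIP60 lies between 1.12 and 1.64 under all 4 scalings, and the other 8 genes lie left of every dotted line.

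The shoot and root markers of the seedlings also moved. All 8 shoot markers were called higher, although with quantile normalization 5 were higher and 2 lower. Over all loci tested 44.1% were called higher and 39.2% lower on the deposited scale. The summed FPKM of the shoot markers was 30490 to 31760 in DMSO and 66210 to 69900 after NAE 18:3. Their log2 changes ran from 0.57 to 2.69. The most abundant, RBCS1A (AT1G67090), held a large part of the sum, with means of 20330 FPKM in DMSO and 30090 FPKM after NAE 18:3. RBCS1A had a log2 change of 0.57 that was 0.00 with quantile normalization, and LHCB1.1 (AT1G29920) had 1.20, which turned to -0.53 there. Of 9 tested root markers 8 were lower and SCR did not pass, with log2 changes from -5.62 to -0.01. The sum of all 11 was 2863 to 2951 FPKM in DMSO and 1180 to 1211 FPKM after NAE 18:3. Most of that sum was PYK10 (AT3G09260), a root-enriched beta-glucosidase that fills ER bodies, a class of ER-derived compartment, and its log2 change was -1.27. AGP30 (AT2G33790) fell by 5.62 on the log2 scale, from a mean of 72.5 FPKM in DMSO to 0.494 FPKM after NAE 18:3. AGP30 and the root marker EXPA7 reached the filter only through the DMSO libraries. No marker was listed at 0 in a whole group. The part of organ proportions in the members' changes was not tested.

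Assembled transcripts differed in composition for some members. The BIP2 locus had 2 transcripts with values. One, matched to TAIR model AT5G42020.2, stood at 25.1, 26.5 and 24.7 FPKM in DMSO, 19.4% to 20.8% of the locus, and was listed at 0 in all 3 NAE 18:3 libraries. The other, matched to AT5G42020.1, fell 3.1-fold by itself. At CRT1A, a transcript that held 30.3% to 34.2% of the locus in DMSO held 15.5% to 22.0% after NAE 18:3, and its mean went from 55.3 ± 3.51 to 14.6 ± 2.95 FPKM (SD, n = 3 each). Both CRT1A transcripts with values carry the same TAIR model, so the table does not say how they differ. At BZIP60 the minor transcript held 5.50% to 8.85% of the locus in DMSO and 4.94% to 6.99% after NAE 18:3, which overlap. Transcripts of a locus share reads, so these values are estimates, and none was tested.

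**Figure D3:**
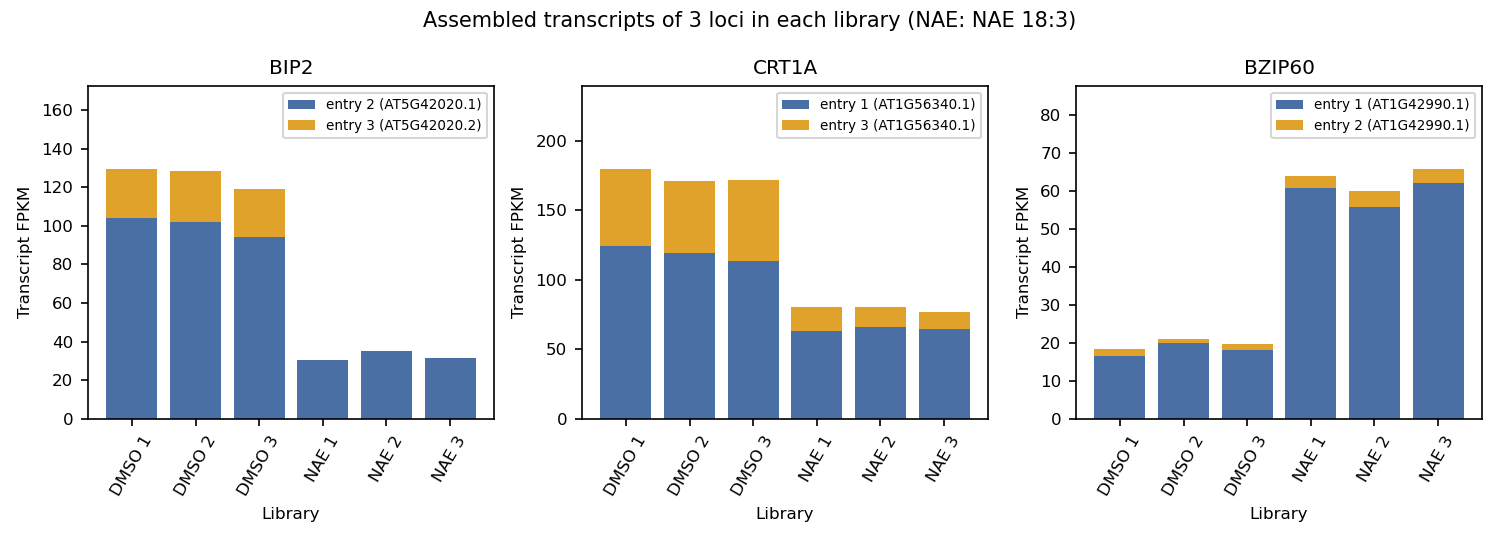
Transcript FPKM (vertical axes) of the assembled transcripts with values at the BIP2, CRT1A and BZIP60 loci in each library, stacked to the locus total, with the matched TAIR model in the legend. The BIP2 transcript matched to AT5G42020.2 is present at 24.7 to 26.5 FPKM in DMSO and listed at 0 after NAE 18:3.

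Other folding genes of the ER moved in both directions, as did all loci tested, of which 44.1% were called higher and 39.2% lower. The counts of each list below stand beside these shares, and beside the counts over all loci given above for each scaling. Of 9 further chaperones, lectins and co-chaperones 5 fell, 3 rose (2 where the call of CRT3 was lost) and 1 did not pass (median log2 change -0.36). Besides ERDJ3B and CNX2, HSP70-17 (AT4G16660), an ER HSP70 of the large GRP170 type, fell from 33.4 ± 1.04 to 20.3 ± 0.725 FPKM. ERDJ3A (AT3G08970), a luminal J-domain protein needed for pollen tubes at high temperature, rose from 3.20 ± 0.292 to 16.6 ± 0.39 FPKM (log2 change 2.07, limma adjusted p = 1.1e-08). ERDJ2B (AT4G21180), a J-domain protein of the translocation pore, had a log2 change of 0.35 that turned to -0.14 with sum scaling. With the upper quartile and with the sum 1 of the 9 rose and 7 and 8 fell, and with the quantiles 2 rose and 7 fell.

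Of 11 further disulfide isomerases and oxidases 7 fell, 2 rose and 2 did not pass (median -0.29). The falls with the smallest adjusted p were those of PDIL1-2 (AT1G77510), from 36.8 ± 1.36 to 12.9 ± 0.632 FPKM, PDIL1-3 (AT3G54960), from 34.4 ± 2.43 to 9.10 ± 0.794 FPKM, and PDIL2-2 (AT1G04980), from 13.1 ± 0.794 to 3.29 ± 0.499 FPKM. PDIL1-5 (AT1G52260) rose from 3.89 ± 0.573 to 8.08 ± 0.426 FPKM. PDIL1-6 (AT3G16110) had a log2 change of 0.34 that turned to -0.16 with sum scaling. ERO1 and ERO2, the thiol oxidases that recharge disulfide isomerases, did not pass, with log2 changes of -0.02 and -0.11. With the upper quartile and with the sum 1 of the 11 rose and 9 fell, and with the quantiles 2 rose and 8 fell.

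Genes of ER stress sensing rose more often than they fell on the deposited scale, as did all loci tested (44.1% higher, 39.2% lower). Of 12 tested sensors and regulators 8 rose, 2 fell and 2 did not pass (median 0.32), and BZIP49 did not reach 1 FPKM. IRE1A (AT2G17520), one of the kinases that splice BZIP60 mRNA, stood at 5.05, 4.10 and 5.25 FPKM in DMSO and at 24.6, 23.4 and 25.5 FPKM after NAE 18:3. It rose 5.1-fold (log2 change 2.14, standard error 0.083, limma adjusted p = 2.8e-08). TIN1 (AT5G64510), a tunicamycin-induced gene, rose 9.2-fold, from 1.18 ± 0.155 to 10.9 ± 0.687 FPKM. NAC062 (AT3G49530), a membrane-tethered factor, rose from 7.38 ± 0.311 to 30.2 ± 0.907 FPKM. NAC103 (AT5G64060), a factor known to act downstream of bZIP60, fell instead, from 1.77 ± 0.153 to 0.265 ± 0.085 FPKM. NAC103 reached the filter only through the DMSO libraries. BAG7 (AT5G62390), an ER co-chaperone, had a log2 change of -0.28. The other bZIP factors of the ER membrane, BZIP28 and BZIP17, named here after their values were seen, had log2 changes of 1.17 (called higher) and 0.09 (not passed). With the upper quartile 5 of the 12 rose and 4 fell, with the sum 5 rose and 5 fell, and with the quantiles 8 rose and 2 fell.

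Of 10 genes of ER-associated degradation, which returns misfolded proteins to the cytosol, 8 rose, none fell and 2 did not pass (median 0.57). Over all loci tested 44.1% were called higher and 39.2% lower. The rises with the smallest adjusted p were those of DER2.1 (AT4G21810), a derlin of the export channel, from 22.3 ± 0.809 to 57.9 ± 4.39 FPKM, UBC32 (AT3G17000), a ubiquitin-conjugating enzyme of the ER membrane, from 13.3 ± 0.367 to 27.7 ± 2.04 FPKM, and CDC48A (AT3G09840), the ATPase that extracts substrates, from 127 ± 5.13 to 186 ± 2.74 FPKM. The split rested on the scale. It was 7 higher and 2 lower with the upper quartile, 7 and 0 with the quantiles, and 3 and 3 with the sum, where CDC48A had a log2 change of 0.01 and did not pass.

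Of 10 genes of the Sec61 translocon, the pore into the ER, 4 rose, 3 fell and 3 did not pass (median 0.06). This was near the shares over all loci tested, 44.1% higher and 39.2% lower with a median of 0.06. SEC61A-3 (AT1G78720) stood at 5.92, 6.90 and 6.04 FPKM after NAE 18:3 and at 0.052 FPKM or less in DMSO, with 1 library listed at 0. It reached the filter only through the NAE 18:3 libraries. SEC61G-3 (AT3G48570) rose from 22.9 ± 1.74 to 63.7 ± 6.78 FPKM and SEC61B-2 (AT3G60540) from 3.35 ± 0.836 to 9.66 ± 0.399 FPKM. SEC61G-1 (AT5G50460), SEC61A-1 (AT1G29310) and SEC61B-3 (AT5G60460) fell, with log2 changes of -0.71, -0.66 and -0.97. The genes of 1 subunit thus went both ways. With the upper quartile and with the quantiles 3 rose and 6 fell, and with the sum 3 rose and 7 fell.

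Values of HSP70 and HSP90 chaperones in other compartments, and of HSP101, are set beside those of the ER members, whose median was -1.13. Over all loci tested 44.1% were called higher and 39.2% lower on the deposited scale. All 6 plastid and mitochondrial HSP70 and HSP90 genes fell under every scaling, with a median of -1.26 on the deposited scale. Among them were CPHSC70-1 (AT4G24280) of the chloroplast stroma, from 306 ± 4.47 to 133 ± 0.295 FPKM, HSP90.5 (AT2G04030) of the plastid, from 255 ± 2.34 to 83.6 ± 3.26 FPKM, and MTHSC70-1 (AT4G37910) of mitochondria, from 120.3 ± 5.01 to 37.0 ± 1.11 FPKM. Of 9 cytosolic HSP70, HSP90 and HSP101 loci 5 rose and 4 fell under every scaling, with a median of 1.07 on the deposited scale and 0.53 to 0.86 under the others. With transcripts summed per TAIR gene, HSP90.2 and HSP90.3 counted apart, 5 of 10 rose and 5 fell, with a median of 0.42. The rises were led by HSP90.1 (AT5G52640), HSP101 (AT1G74310) and HSP70-5 (AT1G16030), with log2 changes of 2.26, 2.58 and 2.55. Falls were seen for HSC70-2 (AT5G02490), HSP90.4 (AT5G56000) and the joined locus of HSP90.2 and HSP90.3, with log2 changes of -0.47, -0.68 and -0.44. The difference between these lists and the ER members was not tested.

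**Figure D4:**
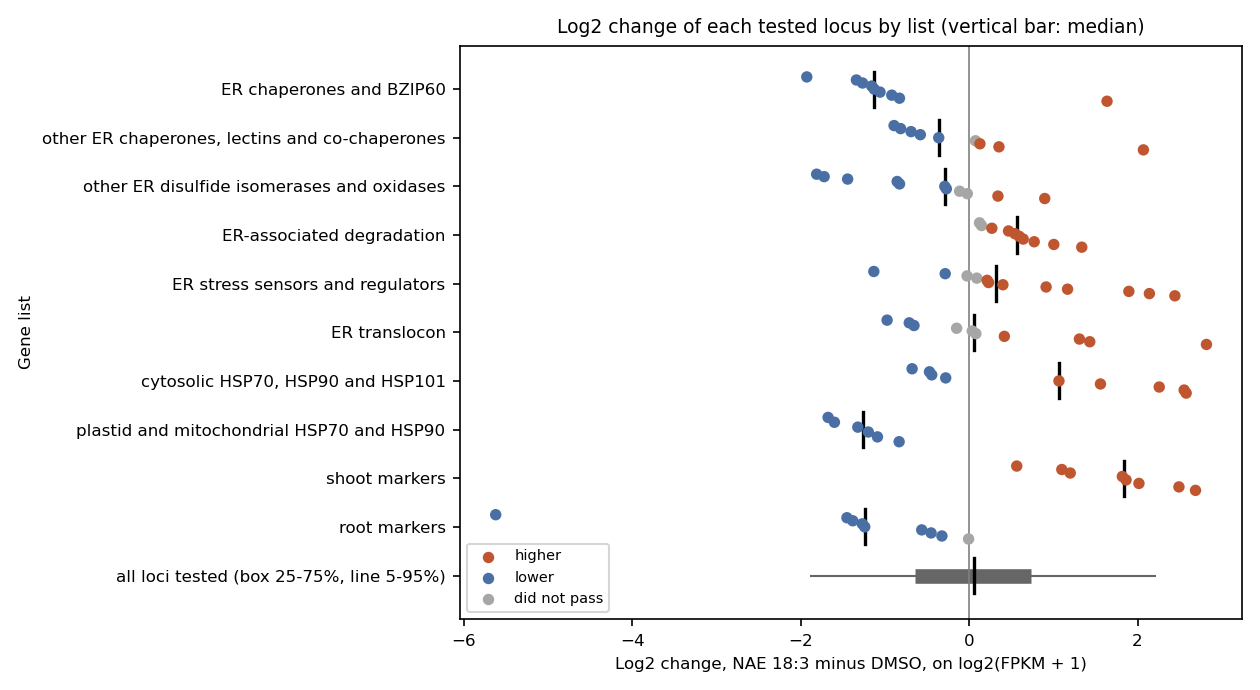
Log2 change (horizontal axis, NAE 18:3 minus DMSO, on log2(FPKM + 1)) of each tested locus by gene list, coloured by call, with the list median as a vertical bar, above the 5th to 95th percentiles of all loci tested. The 8 members that fell (top row) and the plastid and mitochondrial chaperones lie left of 0, and BZIP60 lies right of it.

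Over the genome, loci with either motif held calls in both directions on the deposited scale. Of the 156 tested loci with ERSE-I in the upstream window, members left out, 53.2% were called higher and 32.1% lower, with a median log2 change of 0.24, against 44.1%, 39.2% and 0.06 for all loci tested. Of the 282 tested loci with TGACGTGG, members left out, 57.8% were called higher and 30.9% lower, with a median of 0.37. Outside the members, the lists held ERSE-I at P58IPK, HSP70-17, UGGT, PDIL1-2, HRD1B, HRD3A, BI1 and SEC61B-2. These counts are a description, and the difference was not tested.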

How the data were processed

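Total RNA of whole seedlings was prepared with a TruSeq kit per the labels' protocols, and the submitters' processing notes name TopHat, Cufflinks, Cuffdiff and the build TAIR9, with versions and settings not given in the sources used here. The FPKM values deposited by the authors, of 61448 transcripts and 32424 loci, carry no unit in their headers, and the unit was taken from these tools and the values. The 4 columns of merged values were not used. Each column name was found in the description of 1 sample.

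FPKM keeps no total count. Steps among low values gave a depth of 0.483 to 1.27 relative to NAE 18:3 replicate 1, lowest in DMSO replicate 1. In the other 5 libraries at most 25.0% of the compared loci lay at the common step, so whole reads were not recovered, no count test was run and the absolute depth is unknown.

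Log2(FPKM + 1) was fitted with limma 3.58.1 (R 4.3.3), group as the only term, with a mean-variance trend, on loci whose mean reached 1 FPKM. The fit was tested on simulated data in which most loci did not change, whereas 83.2% of the tested loci were called here. A gene spread over several loci was read at its own most abundant locus. The members and lists were chosen with earlier results of these data known. All 10 members are named, and from each of 7 further lists up to 3 rising and 3 falling genes, taken in order of adjusted p, and from each marker list the 2 most abundant; other genes named were added after their values were seen. The 15 alternatives changed the pseudocount, the filter, the scaling, the block, the trend, the summing of transcripts or left out 1 library. Sequences and motifs are from RefSeq, TAIR10.1, which may differ from the authors' build.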

Additional observations from a re-analysis of the deposited data

How the results depend on the processing

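The 8 falls and the rise of BZIP60 kept their direction and call under all 15 alternatives. Leaving out each library in turn gave a median of -1.14 to -1.11 for the tested members, 1.59 to 1.68 for BZIP60, -1.62 to -1.56 for BIP1 and BIP2 summed, and a difference in the BIP3 share of 0.500 to 0.551 percentage points and in the CRT1A share of -1.55 to -0.65. No shared effect of the replicate number was seen in the values: deviations of same-numbered libraries correlated at -0.013, -0.009 and 0.018. These values cannot tell whether same-numbered samples were grown or handled together. With the replicate block 7951 loci were higher and 7061 lower, with BZIP60 at 1.64. BIP3 could be tested only with no filter, where 2 members were higher.

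Scaling moved sizes and the counts of lists. With the sum, 4831 loci were higher and 10786 lower, the members' median was -1.66, and higher and lower counts were 1 and 8 for other chaperones, 3 and 3 for degradation, 5 and 5 for sensors, 7 lower for the translocon and 1 higher for disulfide isomerases. With the upper quartile the median was -1.48, with 1 of the other chaperones and 1 of the disulfide isomerases higher, 2 of the degradation genes lower, 5 sensors higher and 4 lower, and 6 translocon genes lower. With quantile normalization the median was -1.43, 6 translocon genes were lower, and 5 shoot markers were higher and 2 lower. With a mean of at least 5 FPKM, which tests fewer loci, 1 sensor and 5 root markers were lower. Of 82 called members, list genes and markers 11 turned sign under at least 1 scaling, all from a call of higher to a negative log2 change, and none was a member. The named ones were CRT3 (-0.21 with the upper quartile, -0.22 with the quantiles, -0.40 with the sum), ERDJ2B (-0.14 with the sum), PDIL1-6 (-0.16 with the sum) and LHCB1.1 (-0.53 with the quantiles). The others were OS9, IRE1B and S2P with the upper quartile and the sum, HRD1A, S1P and SEC61G-2 with the sum, and PSAD1 with the quantiles, at -0.34 to -0.02. The negative values of PDIL1-6, HRD1A, S1P and S2P did not pass, nor did those of OS9 and IRE1B with the upper quartile. The cause of the turns was not tested. CRT3 also lost its call with the block, without the trend and without any of 4 single libraries, DMSO replicates 1 and 3 and NAE 18:3 replicates 1 and 2. The unknown depth limits the low loci, BIP3 above all.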
